A study of Homo sapiens with 12 samples.

Results

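The question addressed here is what actinonin did to the fitness of knockout cells while the mitochondrial ribosome was also inhibited by chloramphenicol. By the paper's methods, the combined drugs were given together from the start of treatment. Cells treated with both drugs were compared with cells treated with chloramphenicol alone. All 19112 genes of the deposited screen table entered the comparison, so no gene was chosen by its value. The screen used HEK293 cells, a line derived from human embryonic kidney, and the Brunello library, which carries 4 guide RNAs for nearly every gene (19103 genes had exactly 4). Of 12 samples in 4 conditions, 3 independent replicates each received 5 µg/mL chloramphenicol (CAP) or 5 µg/mL chloramphenicol with 15 µM actinonin (ACT CAP). The other two conditions, with 3 replicates each, were the ethanol solvent (EtOH) and 15 µM actinonin alone (ACT). All cells grew in medium with pyruvate and uridine and were harvested on day 15 of treatment. After infection and selection, the pool of knockout cells of 1 cell line was divided over the conditions.

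Mitochondria carry their own ribosome, which translates a small set of respiratory chain subunits from mitochondrial DNA. Chloramphenicol is an antibiotic that blocks the joining of amino acids by this ribosome, and so the making of the organelle's own proteins. Actinonin is a peptide mimetic that inhibits metallopeptidases, among them the mitochondrial peptide deformylase PDF, which removes the formyl group from newly made mitochondrial proteins. Under actinonin, faulty nascent proteins accumulate in the inner membrane, and this needs a working ribosome. The paper describes a loss of mitochondrial translation with chloramphenicol, which would take away the substrate of this process. Any translation left at the dose used was not measured here.

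Each gene has 1 beta score per condition, the coefficient of the authors' fit over guides and replicates, which is negative where knockout cells became rarer. The log base of beta is not stated, so sizes are compared only within the table. The z score is beta divided by its standard error, and the z difference is ACT CAP z minus CAP z. For the test, the beta difference was divided by its joined standard error, centred on the median of all genes and divided by the spread over all genes. This spread was taken separately for each comparison, so scaled differences of separate comparisons do not share a scale. Benjamini-Hochberg adjustment ran over the whole table, and a gene passed where its adjusted p was at or under 0.05. Values per replicate were not used here, so the errors printed are standard errors of the fit.

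Few knockouts passed as changed between treatment with both drugs and with chloramphenicol alone. Of 19112 genes, 9 passed the test (0.0471%), with 4 higher in ACT CAP (0.0209%) and 5 lower (0.0262%). The lower genes were LAP3, USP51, GTPBP6, RBM15 and NME6. The higher genes were ATP2C1, MIEF1, PHF6 and FCHSD1. The smallest scaled difference to pass was 4.26. By the z difference alone, 17 genes reached 3 (0.0889%) and 30 reached -3 on the lower side (0.157%). The margin was narrow, since no gene passed with the fit's standard errors taken at face value. At an unadjusted p under 0.05 there were 1187 genes, 6.21% of all.

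**Figure D1:**
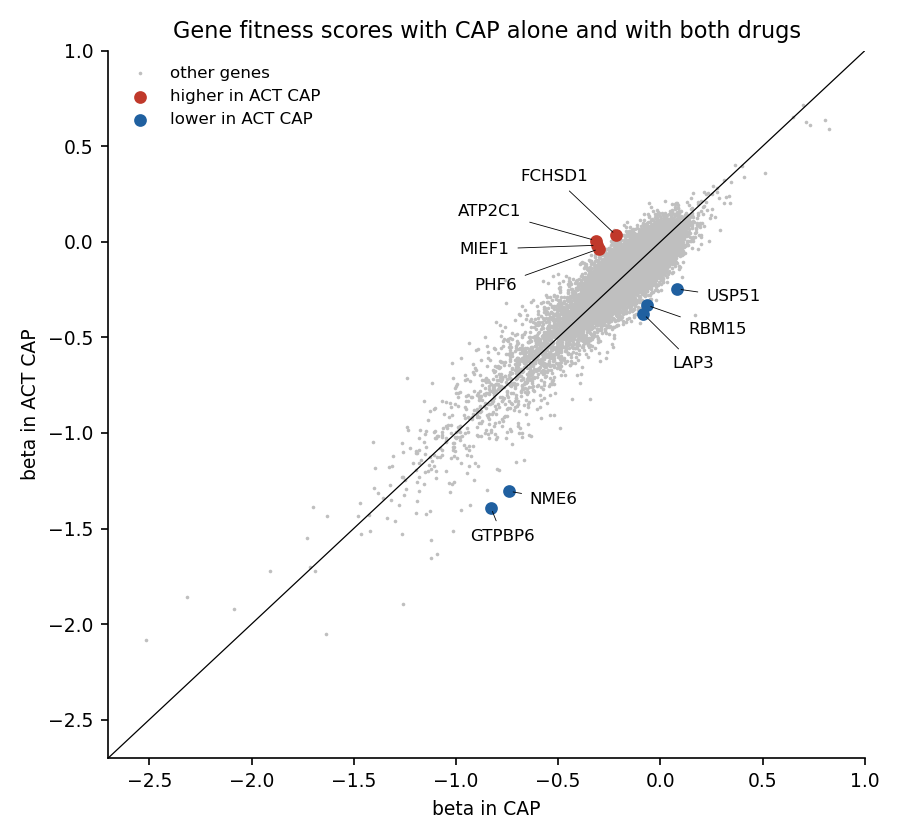
Beta score of each of 19112 genes in CAP (x axis) and in ACT CAP (y axis), with the line of equal values. Grey points are genes that did not pass the test, red points the 4 genes higher in ACT CAP and blue points the 5 lower. Most genes lie along the line, and the blue points of NME6 and GTPBP6 sit far below it among knockouts that were already rare in CAP.

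The comparison of ACT with EtOH shares no condition with that of ACT CAP with CAP and gives the effect of actinonin without chloramphenicol. The paper states that doses were chosen to slow growth to a similar extent in the drug conditions. ACT and EtOH thus also differ in growth inhibition, while CAP and ACT CAP were meant to be alike in it. How far growth entered the values was not tested. There, 206 genes were higher in ACT (1.08%) and 30 lower (0.157%). The z difference had a standard deviation of 1.44 over all genes without CAP and 0.911 with CAP. Its 99th percentile was 4.69 without CAP and 2.24 with CAP, and its 1st percentile was -2.79 and -2.15. The narrowing was thus larger on the side of higher values. The fit's standard errors were alike in both arms, with a ratio of ACT CAP to CAP of 0.996 at the 1st percentile and 1.01 at the 99th.

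**Figure D2:**
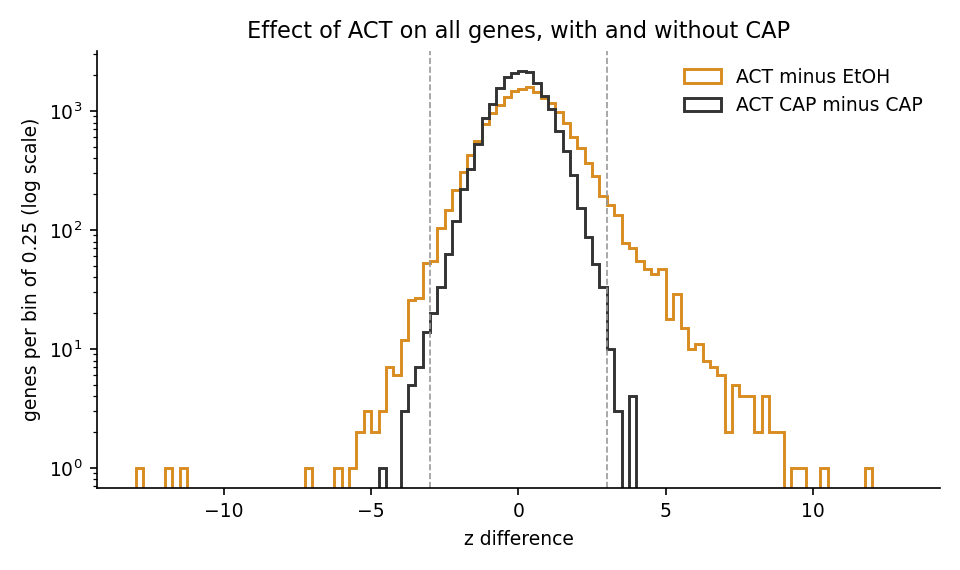
Histogram of the z difference over 19112 genes for ACT minus EtOH (orange) and ACT CAP minus CAP (black), with genes per bin of 0.25 on a log axis and dashed lines at -3 and 3. The orange curve runs beyond 10 on the right, while the black curve ends below 4 on the right and at -4.67 on the left.

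Among the lower genes, LAP3 had the largest difference. LAP3 is leucine aminopeptidase, a zinc-dependent enzyme that removes amino acids from the start of peptides. Its beta was -0.169 ± 0.063 (SE of the fit over 3 replicates, as for all betas here) in EtOH, -0.024 ± 0.063 with ACT, -0.084 ± 0.063 with CAP and -0.377 ± 0.063 with both drugs. The LAP3 knockout was thus rarer with both drugs than with either alone or with none. The other 3 values ran from -0.169 to -0.024. Between ACT and EtOH the z difference was 2.32, and the scaled difference of 1.59 did not pass. Between ACT CAP and CAP the z difference of LAP3 was -4.67 and the scaled difference -5.43. LAP3 was the only gene that passed with an adjusted p of 0.01 as the threshold.

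GTPBP6, a mitochondrial GTPase that acts in recycling and assembly of the mitoribosome, and NME6, a mitochondrial nucleoside diphosphate kinase, were the lower genes with a known place in mitochondrial gene expression. Beta of GTPBP6 was -1.313 ± 0.144 in EtOH, -0.535 ± 0.142 with ACT, -0.829 ± 0.143 with CAP and -1.390 ± 0.145 with both drugs. Loss of GTPBP6 was therefore costly in solvent, less so under each drug alone, and as costly under both drugs as in solvent. Its scaled difference was -4.55 for ACT CAP minus CAP and 4.09 for ACT minus EtOH, and both passed. Beta of NME6 was -1.250 ± 0.154 in EtOH, -1.061 ± 0.155 with ACT, -0.740 ± 0.153 with CAP and -1.305 ± 0.155 with both drugs. For NME6 the CAP value stood nearest to 0 and the value with both drugs was close to that in EtOH, and the scaled difference was -4.26. NME6 lost its call when the difference was corrected for its trend with EtOH beta.

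USP51, a deubiquitinase of histone H2A, and RBM15, an RNA-binding subunit of the complex that writes N6-methyladenosine on mRNA, act in the nucleus. Beta of USP51 was -0.109 ± 0.082 in EtOH, -0.002 ± 0.082 with ACT, 0.081 ± 0.082 with CAP and -0.247 ± 0.083 with both drugs, with a scaled difference of -4.63. Beta of RBM15 was -0.202 ± 0.068 in EtOH, -0.320 ± 0.068 with ACT, -0.066 ± 0.068 with CAP and -0.331 ± 0.068 with both drugs, with a scaled difference of -4.55. For RBM15 both conditions with actinonin were low and CAP alone was high. RBM15, NME6 and FCHSD1 did not pass when the spread was also set by genes of like EtOH beta.

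Of the 4 higher genes, ATP2C1 was the only gene that also passed as higher in ACT than in EtOH. ATP2C1 is the pump that brings calcium and manganese into the Golgi apparatus. Its beta was -0.130 ± 0.082 in EtOH, 0.374 ± 0.082 with ACT, -0.316 ± 0.082 with CAP and 0.007 ± 0.082 with both drugs. Actinonin thus raised the ATP2C1 knockout from either starting point, with a beta difference of 0.323 with CAP and 0.504 without it. The scaled differences were 4.42 and 4.63, each relative to the spread of its own comparison. The interaction, which is the effect of actinonin with CAP minus that without, had a scaled value of -1.30 and did not pass. TMEM165, another Golgi transporter of manganese and calcium, was looked at after the ATP2C1 value was seen. Its beta was -0.524 ± 0.114 in CAP and -0.179 ± 0.114 in ACT CAP, and its scaled difference of 3.39 did not pass.

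MIEF1, an outer membrane receptor for the fission GTPase DRP1, responded differently to actinonin with CAP and without it. Beta of MIEF1 was -0.075 ± 0.074 in EtOH, -0.256 ± 0.074 with ACT, -0.309 ± 0.074 with CAP and -0.018 ± 0.074 with both drugs. Each drug alone gave a lower value than solvent or both drugs together. The scaled difference was 4.42 for ACT CAP minus CAP and -2.19 for ACT minus EtOH, of which only the first passed, and the interaction of 4.40 passed. That interaction includes the ACT CAP and CAP values by which MIEF1 was picked. FCHSD1, a membrane-binding F-BAR protein, had the same order, with beta of -0.095 ± 0.066 in EtOH, -0.216 ± 0.066 with ACT, -0.217 ± 0.066 with CAP and 0.035 ± 0.066 with both drugs. Its scaled difference was 4.31 and its interaction 3.92. PHF6, a chromatin protein with PHD-like zinc fingers, had beta of -0.357 ± 0.068 in EtOH, -0.156 ± 0.068 with ACT, -0.299 ± 0.068 with CAP and -0.036 ± 0.068 with both drugs, with a scaled difference of 4.37. The PHF6 values were closer to 0 in both conditions with actinonin.

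**Figure D3:**
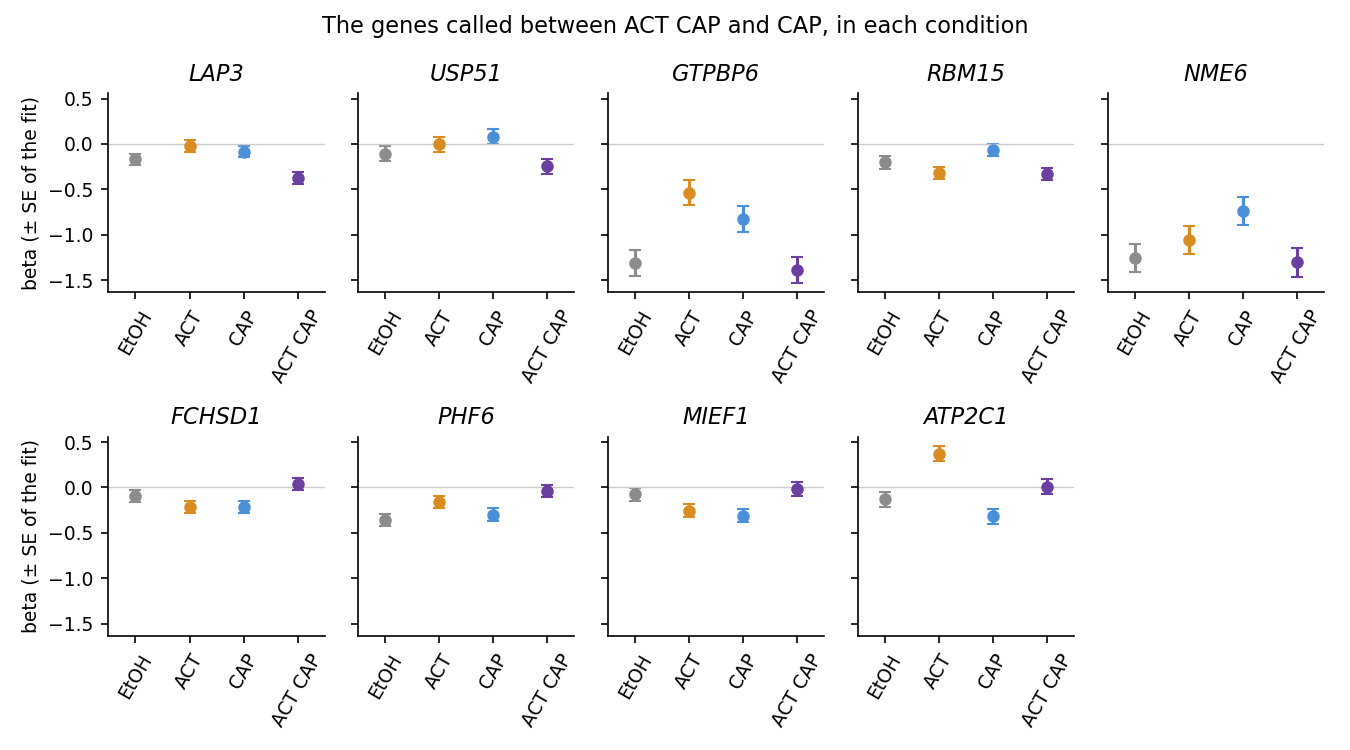
Beta score of the 9 genes that passed the test between ACT CAP and CAP, in EtOH, ACT, CAP and ACT CAP, with bars of 1 standard error of the fit. The upper row holds the 5 genes lower in ACT CAP and the lower row the 4 higher ones. GTPBP6 and NME6 have about the same beta in ACT CAP as in EtOH, and LAP3 is lowest in ACT CAP.

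The next 10 genes on the lower side did not pass. They were FAM210B, INAFM1, ISX, EIF2AK1, RPUSD4, NLN, COQ6, GFM1, FIBIN and BANF2, with scaled differences from -4.20 to -3.82. EIF2AK1 is the kinase HRI, which relays mitochondrial stress to translation initiation, and its beta was 0.171 ± 0.155 in CAP and -0.381 ± 0.158 in ACT CAP. NLN is neurolysin, a zinc metallopeptidase, with beta of -0.027 ± 0.051 in CAP and -0.201 ± 0.051 in ACT CAP.

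RPUSD4 modifies the large mitochondrial rRNA, and its beta was -1.745 ± 0.156 in EtOH, -1.232 ± 0.156 with ACT, -1.091 ± 0.155 with CAP and -1.633 ± 0.157 with both drugs. GFM1 is the elongation factor that moves the mitoribosome along its mRNA, with beta of -1.046 ± 0.132, -0.538 ± 0.132, -0.705 ± 0.132 and -1.150 ± 0.133 in the same order. In both genes EtOH and ACT CAP gave the 2 lowest values and each single drug a value closer to 0, as for GTPBP6. TUFM, the mitochondrial elongation factor that delivers charged tRNA, had a scaled difference of -3.77, and CLUH, which binds mRNAs of nuclear-encoded mitochondrial proteins, -3.64 (CLUH was picked after its value was seen). When the difference was corrected for its trend with CAP beta, RPUSD4, GFM1, TUFM, COQ6, PITRM1, CLUH and SAP130 passed as well, 12 lower genes in all.

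On the higher side, the next 11 genes were ZNF330, CXCL16, TRIM39, MYO6, R3HDM1, TRIM40, ARFGAP1, ZNF705D, OR10K1, EIF3L and SF3B3, with scaled differences from 3.83 to 3.45. None passed. OR10K1 is an olfactory receptor, a class with no known role in these cells, so differences of this size also occurred in a gene of that class. EIF3L, a peripheral subunit of translation initiation factor eIF3, had beta of -0.660 ± 0.089 in EtOH, -0.227 ± 0.089 with ACT, -0.381 ± 0.089 with CAP and -0.106 ± 0.089 with both drugs. It passed as higher in ACT than in EtOH, with a beta difference of 0.433 and a scaled difference of 3.61. In ACT CAP minus CAP these were 0.275 and 3.46.

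The genes of mitochondrial translation are described by role, each list beside all genes, whose median z difference was 0.07 and of which 50% by construction lie below that median. The 19 mitochondrial tRNA synthetases, which charge tRNAs in the organelle, had a median z difference of -1.20, and 17 of 19 lay below the median of all genes. None passed the test. Their median z was -6.11 in EtOH, -5.54 with ACT, -4.89 with CAP and -5.81 with both drugs. EARS2, for glutamate, was lowest with beta of -0.931 ± 0.162 in CAP and -1.378 ± 0.163 in ACT CAP, and RARS2, for arginine, highest with -0.611 ± 0.119 and -0.524 ± 0.119. The shift was thus spread over most members, none of which passed alone.

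The 19 translation factors had a median z difference of -0.84, with 12 below the median of all genes and GFM1 and TUFM beyond -3. Small subunit proteins (31) had a median of -0.56 with 28 below, and large subunit proteins (52) -0.20 with 33 below. No ribosomal protein passed. MRPL17 was the lowest of them, with beta of -1.288 ± 0.149 in EtOH, -0.494 ± 0.147 with ACT, -0.848 ± 0.148 with CAP and -1.299 ± 0.149 with both drugs. MRPS7, of the small subunit, had beta of -0.364 ± 0.084 in CAP and -0.585 ± 0.085 in ACT CAP. ICT1, a peptidyl-tRNA hydrolase built into the large subunit, was the highest, with -0.386 ± 0.124 and -0.179 ± 0.123.

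Of 32 mitoribosome assembly factors, 24 lay below the median of all genes, with a list median of -0.54, and 1 passed, NME6. GTPBP6, which also passed as lower, was not a member of this list. Without chloramphenicol the same 32 genes had a median z difference of 3.78, and 13 of them passed as higher in ACT, against 1.08% of all genes. METTL17, an assembly factor of the small subunit, had beta of -1.007 ± 0.155 in EtOH, 0.269 ± 0.151 with ACT, -0.666 ± 0.154 with CAP and -1.142 ± 0.157 with both drugs. Among its 4 values the METTL17 knockout stood highest with actinonin alone and lowest with both drugs. Its scaled difference of -3.58 between ACT CAP and CAP did not pass. C6orf203 (MTRES1), a mitochondrial RNA-binding protein, had -0.428 ± 0.099, 0.532 ± 0.099, -0.307 ± 0.099 and -0.217 ± 0.099 in the same order, and its value with both drugs stood above that in CAP. GTPBP8, a GTPase of large subunit assembly, had -0.807 ± 0.117, 0.014 ± 0.117, -0.585 ± 0.117 and -0.830 ± 0.117.

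In all 5 of these lists the median z was lower in EtOH than in CAP. The comparison of CAP with EtOH shares the CAP values with that of ACT CAP with CAP, at the opposite sign, so an error in a CAP value moves both in opposite directions. The 5 median z differences for CAP minus EtOH were 1.89 for tRNA synthetases, 1.81 for translation factors, 1.42 and 1.06 for small and large subunit, and 1.58 for assembly. Across all genes, CAP z and the z difference ACT CAP minus CAP had a correlation of r = -0.306, a measure that holds the same CAP value on both axes, while EtOH z, which is in neither arm, had r = -0.00661. How far errors in CAP entered the list medians was not tested. When the difference was corrected for its trend with EtOH z or with CAP z, the 5 medians were -0.25 to -1.15 and -0.62 to -1.54. Neither correction can show how far errors in CAP entered. The difference had almost no trend with EtOH z, and the negative trend with CAP z moves lists with low CAP z further down.

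**Figure D4:**
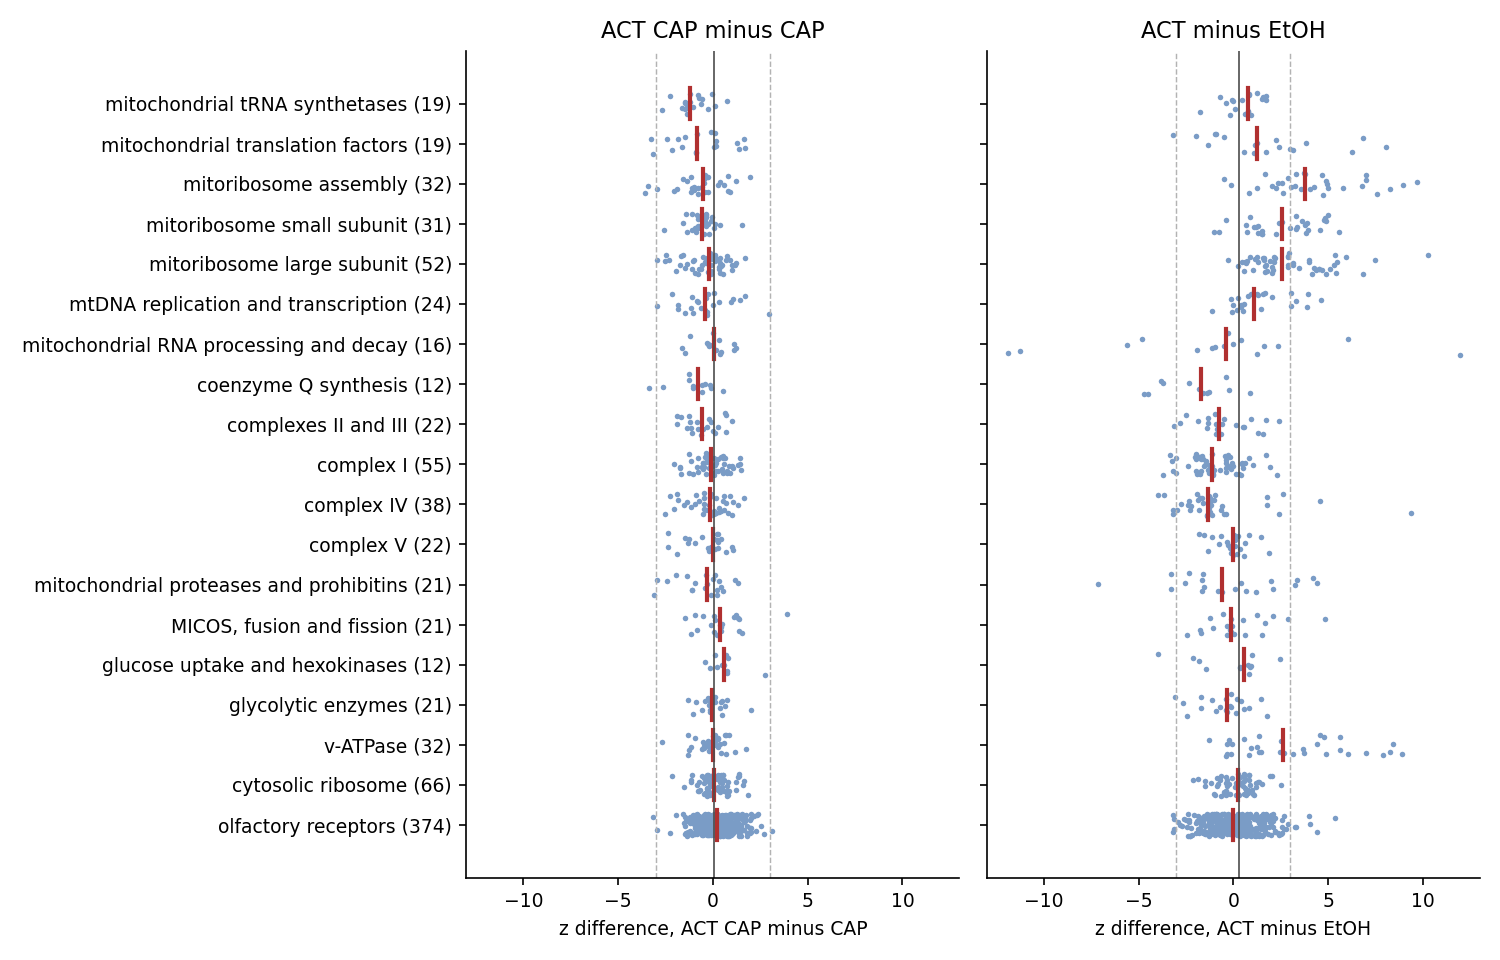
The z difference of each member (blue points) of 19 gene lists, with list medians as red bars and list sizes in brackets, for ACT CAP minus CAP (left) and ACT minus EtOH (right). The black line is the median of all genes and dashed lines mark -3 and 3. On the left the lists lie near the black line, with tRNA synthetases lowest at -1.20, and on the right mitoribosome assembly (3.78) and v-ATPase (2.62) lie to its right.

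Among genes that act before translation, none passed the test. The 24 genes of mitochondrial DNA replication and transcription had a median z difference of -0.40 with 18 below the median of all genes. C10orf2 (Twinkle), the replicative helicase, was lowest, with beta of -1.736 ± 0.164 in EtOH, -1.231 ± 0.163 with ACT, -1.016 ± 0.161 with CAP and -1.513 ± 0.164 with both drugs. MGME1, a mitochondrial exonuclease of DNA maintenance, was highest, with -0.284 ± 0.064 in CAP and -0.095 ± 0.064 in ACT CAP. The 16 genes of mitochondrial RNA processing and decay had a median of 0.05 with 8 below (-0.23 after correction for the trend with CAP z), and the 23 tRNA modification enzymes -0.17 with 13 below. TRMU and MTO1, which both act on the same uridine of the tRNA anticodon, stood at the 2 ends of that list, with z differences of 2.05 and -2.45.

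For the drug target and related peptidases, 20 genes had a median z difference of 0.14, with 10 on either side of the median of all genes. LAP3 passed and no other did. PDF, the peptide deformylase, had beta of -0.173 ± 0.074 in EtOH, 0.035 ± 0.074 with ACT, -0.027 ± 0.074 with CAP and -0.085 ± 0.074 with both drugs, and its scaled difference was -0.97. METAP1D, the mitochondrial methionine aminopeptidase that acts after PDF, had -0.106 ± 0.056, 0.277 ± 0.056, -0.083 ± 0.056 and -0.123 ± 0.057. METAP1D passed as higher with actinonin in the absence of chloramphenicol and not in its presence, and the interaction of -4.82 passed. MTFMT, which formylates the initiator tRNA, had -0.300 ± 0.116 in CAP and -0.359 ± 0.116 in ACT CAP, a scaled difference of -0.66. The 11 genes of initiator tRNA formylation and mitochondrial folate had a median of -0.33.

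No respiratory chain gene passed the test. The medians of the z difference were -0.08 for 55 genes of complex I, -0.56 for 22 of complexes II and III, -0.13 for 38 of complex IV and -0.01 for 22 of complex V. After correction for the trend with CAP z they were -0.34, -0.892, -0.388 and -0.325 in the same order. NUBPL, an iron-sulfur factor of complex I, was lowest in its list at -2.05, and HCCS, the cytochrome c heme lyase, lowest in that of complex IV at -2.55. COX5A, a nuclear-encoded subunit of complex IV, had beta of -0.530 ± 0.083 in EtOH, 0.251 ± 0.083 with ACT, -0.178 ± 0.083 with CAP and -0.365 ± 0.083 with both drugs. The COX5A knockout was more frequent in ACT than in EtOH, which passed, while its scaled difference with CAP was -2.64, which did not. The interaction of -7.58 passed.

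Of the 12 genes of coenzyme Q synthesis, 11 lay below the median of all genes, with a list median of -0.81. Coenzyme Q carries electrons from complexes I and II to complex III. COQ6, a monooxygenase of its ring, had beta of -0.442 ± 0.093 in EtOH, -0.883 ± 0.094 with ACT, -0.233 ± 0.093 with CAP and -0.549 ± 0.093 with both drugs. The beta difference of COQ6 was -0.441 without CAP and -0.316 with CAP. Its scaled difference, relative to the spread of each comparison, was -4.01 without CAP, which passed, and -3.96 with CAP, which did not. The interaction of 1.05 did not pass. ADCK3 (COQ8A), the highest in the list, had a z difference of 0.56. The median z of the list was -2.97 in EtOH, -4.65 with ACT, -2.32 with CAP and -2.88 with both drugs.

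YME1L1 and AFG3L2, which are AAA proteases of the inner membrane, had lower values with actinonin, whether chloramphenicol was present or not. YME1L1, a protease facing the intermembrane space that cleaves the fusion GTPase OPA1, had beta of -0.394 ± 0.128 in EtOH, -1.352 ± 0.132 with ACT, -0.434 ± 0.129 with CAP and -0.821 ± 0.130 with both drugs. Its scaled difference was -6.11 without CAP, which passed, and -3.50 with CAP, which did not, and the interaction of 3.09 did not pass. With CAP, YME1L1 did pass as lower when the median and the spread were both set by genes of like EtOH beta. AFG3L2, the matrix-facing counterpart of YME1L1, had -0.561 ± 0.190, -1.231 ± 0.198, -0.344 ± 0.189 and -0.820 ± 0.194, with a scaled difference of -2.91 with CAP, and it passed in neither comparison. PITRM1, which degrades cleaved presequences, had -0.393 ± 0.111 in CAP and -0.740 ± 0.112 in ACT CAP. OMA1, the stress-activated protease of OPA1, had 0.356 ± 0.109 in ACT but the same value of 0.025 ± 0.110 in CAP and in ACT CAP. Over the 21 proteases and prohibitins the median z difference was -0.32, and 13 lay below the median of all genes.

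OPA1 itself had beta of -0.623 ± 0.135 in CAP and -0.828 ± 0.135 in ACT CAP, a scaled difference of -1.81, and was the lowest of 21 genes of cristae (MICOS), fusion and fission. MIEF1 was the highest and the only one that passed. The list median was 0.40, with 7 of 21 below the median of all genes, and it came to 0.03 after correction for the trend with CAP z.

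Knockouts of the main glucose transporter and of hexokinase 1 were rare in both conditions with chloramphenicol, at values that differed by less than 1 standard error. SLC2A1, the glucose transporter GLUT1, had beta of -0.331 ± 0.126 in EtOH, -0.600 ± 0.127 with ACT, -1.016 ± 0.127 with CAP and -1.074 ± 0.127 with both drugs. HK1, a hexokinase that starts glycolysis, had -0.318 ± 0.127, -0.550 ± 0.127, -1.147 ± 0.129 and -1.072 ± 0.129. Their scaled differences between ACT CAP and CAP were -0.60 and 0.60. HK2, the other main hexokinase, had -0.356 ± 0.128, -0.877 ± 0.130, -0.859 ± 0.129 and -0.499 ± 0.129, so that either drug alone gave a lower value than both together. The scaled difference of HK2 was 3.11, which did not pass, and its interaction of 4.70 passed. GPI, the next enzyme of glycolysis, had the lowest beta here, at -2.517 ± 0.221 in CAP and -2.083 ± 0.222 in ACT CAP, and its scaled difference of 2.16 did not pass. The 12 genes of glucose uptake and hexokinases had a median z difference of 0.56 with 2 below the median of all genes, which came to 0.23 after correction for the trend with CAP z. The 21 glycolytic enzymes had a median of -0.06 with 12 below.

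The v-ATPase, the proton pump that acidifies lysosomes, was among the groups most raised by actinonin alone. In ACT minus EtOH its median z difference was 2.62, and 10 of 32 genes passed as higher, against 1.08% of all genes. With chloramphenicol present the median was 0.02, with 17 of 32 below the median of all genes, and none passed in either direction. After correction for the trend with CAP z the median was -0.33, and after that with EtOH z 0.05. ATP6AP1, an accessory subunit, had beta of -0.871 ± 0.127 in EtOH, 0.253 ± 0.124 with ACT, -0.302 ± 0.126 with CAP and -0.282 ± 0.126 with both drugs. ATP6AP2, the other accessory subunit, had -0.580 ± 0.108, 0.175 ± 0.107, -0.161 ± 0.108 and -0.100 ± 0.108. For both, ACT alone was the only condition above 0, and CAP and ACT CAP differed by less than 1 standard error. The interaction passed for 7 of 32 genes, all lower, against 0.513% of all genes that passed as lower. It was -5.67 for ATP6AP1 and -4.12 for ATP6AP2.

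In stress and nutrient signalling, no member passed. The 23 genes of the integrated stress response had a median z difference of -0.07, with EIF2AK1 lowest. In the 26 brakes on mTORC1 the median was -0.25 (0.12 after correction for the trend with CAP z) and PRKAB1, a regulatory subunit of AMPK, lowest at -3.02. STK11 (LKB1), the kinase that activates AMPK and a gene picked after its value was seen, had beta of 0.332 ± 0.086 in EtOH, -0.204 ± 0.087 with ACT, 0.089 ± 0.086 with CAP and -0.140 ± 0.087 with both drugs. It passed as lower in ACT than in EtOH, and its scaled difference of -3.11 between ACT CAP and CAP did not pass. Among 23 endolysosomal trafficking genes 16 lay below the median of all genes, with a list median of -0.56.

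Lists with no special link to mitochondria varied too. The median z difference was 0.08 for 66 proteins of the cytosolic ribosome, 0.26 for 31 of the proteasome, -0.12 for 28 of the spliceosome and -0.04 for 31 of DNA replication. It was 0.37 for 13 genes of drug efflux, and -0.13 (mean 0.07) for 29 histone and chromatin regulators, of which PHF6 passed. The 374 olfactory receptors had a median of 0.21, with 167 below the median of all genes, 1 that reached 3 and 1 that reached -3. Apart from PHF6 none of these genes passed. A list median of 0.21 was thus also seen in genes that HEK293 cells are not known to need.

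The genes on which actinonin acted without chloramphenicol were followed into ACT CAP minus CAP. The 206 genes higher in ACT had a median z difference of 5.36 without CAP and of 0.11 with CAP (quartiles -0.48 and 0.80). With CAP, 112 of them (54.4%) were above 0, against 53.2% of the 18876 genes that did not pass in ACT. The 30 genes lower in ACT went from a median of -4.56 to 0.05, and 17 of them (56.7%) were above 0. Neither set, as a whole, thus kept a shift that stood apart from the remaining genes. The only genes among the 236 to pass with CAP as well were ATP2C1, higher in both, and GTPBP6, higher without CAP and lower with it. By z difference with CAP, 2 of the 206 genes reached 3 and 2 reached -3, and of the 30 genes 1 reached -3. EIF3L and COQ6 passed only without CAP but kept the direction. Their beta differences were 0.433 and -0.441 without CAP, 0.275 and -0.316 with CAP, and neither interaction passed. Across all genes the scaled differences of both comparisons had r = 0.054, over genes that are not independent replicates.

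**Figure D5:**
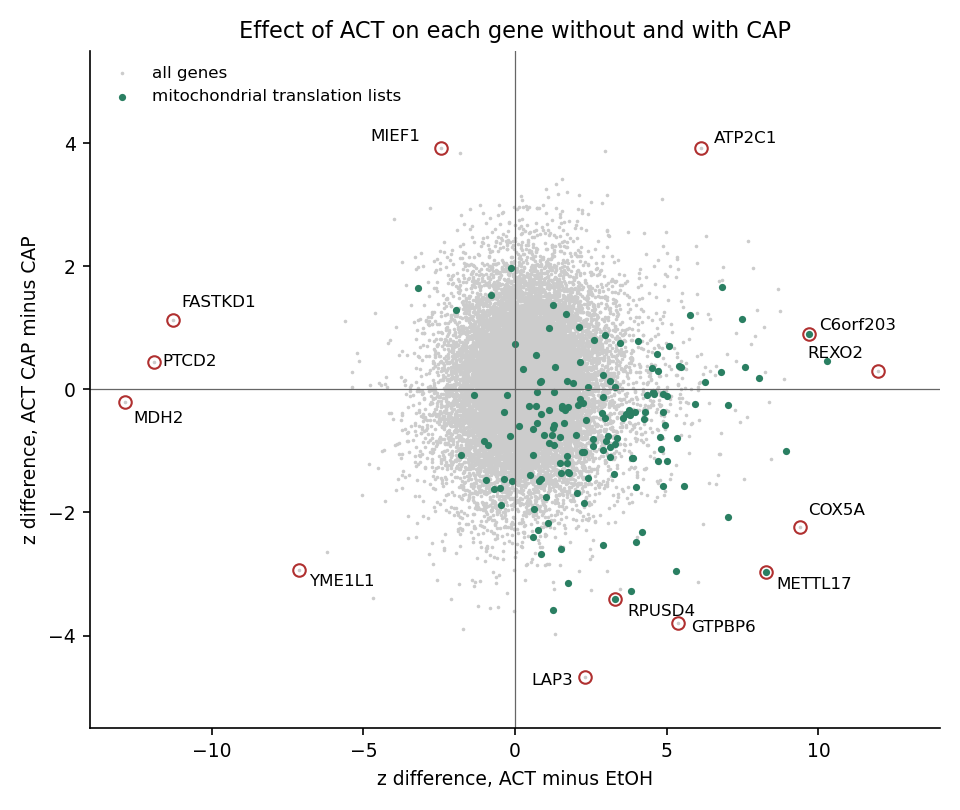
The z difference for ACT minus EtOH (x axis) against that for ACT CAP minus CAP (y axis) for 19112 genes, with members of 5 mitochondrial translation lists in green and named genes circled. REXO2 (11.96, 0.30) and MDH2 (-12.87, -0.20) lie far out on the x axis and near 0 on the y axis. COX5A (9.39, -2.24) and METTL17 (8.28, -2.97) are in the lower right, ATP2C1 in the upper right and YME1L1 in the lower left.

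The change of effect was tested as the interaction of ACT and CAP, in which 19 genes passed as higher with CAP (0.0994%) and 98 as lower (0.513%). Of the 98, 85 were among the 206 genes higher in ACT, and of the 19, 10 were among the 30 lower ones, shares that the shared ACT and EtOH values help to set. REXO2, the mitochondrial oligoribonuclease, had beta of -0.942 ± 0.099 in EtOH, 0.240 ± 0.099 with ACT, -0.468 ± 0.099 with CAP and -0.439 ± 0.099 with both drugs. PDE12, which trims poly(A) tails of mitochondrial RNA, had -1.320 ± 0.118, -0.332 ± 0.117, -0.377 ± 0.117 and -0.402 ± 0.117. For REXO2 and PDE12 a value closer to 0 than in EtOH was reached with CAP alone, and the ACT CAP value differed from it by less than 1 standard error. The knockout of HEMK1, which methylates mitochondrial release factors, stood at -0.269 ± 0.059, 0.207 ± 0.059, -0.212 ± 0.059 and -0.201 ± 0.059. MRPL1, of the large subunit, stood at -0.684 ± 0.117, 0.516 ± 0.116, -0.191 ± 0.117 and -0.138 ± 0.117, and was picked after its value was seen.

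Knockouts that actinonin alone made rarer were compared in the same way. MDH2, the malate dehydrogenase of the mitochondrial matrix, had beta of 0.100 ± 0.082 in EtOH, -0.980 ± 0.084 with ACT, -0.042 ± 0.083 with CAP and -0.059 ± 0.083 with both drugs. FASTKD1, an RNA-binding protein of mitochondrial transcripts, had -0.163 ± 0.086, -1.138 ± 0.086, -0.278 ± 0.086 and -0.181 ± 0.086. PTCD2, a mitochondrial pentatricopeptide repeat protein picked after its value was seen, had -0.090 ± 0.079, -1.037 ± 0.079, -0.210 ± 0.079 and -0.175 ± 0.079. Their interactions were 8.69, 8.46 and 8.42. FASTKD3, a relative of FASTKD1, had -0.122 ± 0.075 in CAP and -0.038 ± 0.075 in ACT CAP, and its interaction was 4.64. These 4 knockouts passed as lower with actinonin where chloramphenicol was absent, and in its presence their scaled differences ran from -0.31 to 1.22.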

How the data were processed

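Guide RNAs were sequenced in 3 independent replicates of 4 conditions, and samples were grouped by their treatment labels. The authors quality-checked the reads in 1 batch and ran MAGeCK, whose version is not given in the sources used here. The deposited table holds a beta score and a z score for each of 19112 genes and each condition, which the authors fitted over all replicates together. The reference of the fit, the log base and a genome build are not given in the sources used here. Read depth per sample was not analysed here, so the precision stated is the standard error of each coefficient.

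The authors also deposited a Wald p-value for each beta. From it and the sign of beta, 1146 of 76448 z scores that stood as dates were recomputed (363 genes in CAP or ACT CAP). One beta that stood as a date (TSC2 in ACT) was rebuilt from z and the median standard error of the other conditions. The deposited permutation p-values and false discovery rates were not used.

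Standard errors were beta over z. Each beta difference over its joined error was centred on the median and divided by the spread of all genes, taken from the median absolute deviation, on the assumption that most genes did not differ. Normal p (2-sided) went through Benjamini-Hochberg adjustment across the table, with calls at 0.05. The interaction was tested likewise. Replicates were pooled in the fit, so no p of a single gene is printed. Alternatives were the null, the threshold, genes with exactly 4 guides, genes without recomputed z, running medians of 501 genes and z in place of beta.

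Named genes are the 15 largest scaled differences per direction, the ends and called members of 49 hand-written lists, and genes central to the study, with later picks marked as such. Of the list symbols, 7 found no match. Members and lists were chosen with earlier results of these data known, and several lists hold genes that the study picked from this screen. The method was tested on simulated data, drawn with the same spread relative to the error in each comparison. For ACT CAP minus CAP, 67 of 100 shifts of 4 spreads and 99 of 100 shifts of 6 spreads were recovered, with 8 false calls. The simulated differences were normal, with the same spread relative to the error for every gene, as the method assumes. Whether the real differences meet this assumption was not tested by the simulation, which therefore gives no support to single calls. Software was Python 3.11.15 with pandas 2.3.3, numpy 2.4.6, scipy 1.17.1 and, for figures, matplotlib 3.10.9.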

Additional observations from a re-analysis of the deposited data

Results flagged for a closer look

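The effect of actinonin with chloramphenicol differed from that without it, by the scaled interaction adjusted over all genes, for 25 of the genes named above. It was higher with CAP for MDH2 (8.692), FASTKD1 (8.46), PTCD2 (8.419), HK2 (4.703), FASTKD3 (4.644), MIEF1 (4.398) and FCHSD1 (3.925). MDH2, FASTKD1, PTCD2, FASTKD3 and HK2 had passed as lower with actinonin alone. Over all genes, 0.0994% passed the interaction as higher with CAP and 0.513% as lower. Many of the named genes were picked by values that also enter the interaction, so that passing it is not separate support for them.

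The effect was lower with CAP for 18 genes. Of mitochondrial RNA and ribosome factors these were REXO2 (-7.602), METTL17 (-7.401), GTPBP6 (-6.066), GTPBP8 (-5.902), C6orf203 (-5.671), PDE12 (-5.585), HEMK1 (-5.06), GFM1 (-4.63), RPUSD4 (-4.342) and C10orf2 (-3.929). Ribosomal proteins were MRPL1 (-6.378) and MRPL17 (-5.428). The others were COX5A (-7.576), ATP6AP1 (-5.674), METAP1D (-4.819), LAP3 (-4.492), ATP6AP2 (-4.119) and BANF2 (-3.678). For GTPBP6, LAP3, MIEF1 and FCHSD1 the difference between ACT CAP and CAP had also passed. Outliers among replicates were not looked for, since each condition has 3 samples, already pooled in the fit.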

How the results depend on the processing

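Between ACT CAP and CAP, 4 genes were called higher and 5 lower. Without division by the spread of all genes the counts were 0 and 0, and at an adjusted p of 0.01 they were 0 and 1. Among genes without a recomputed z, 8 were lower, the 5 already called with FAM210B, INAFM1 and ISX, and 3 higher, since ATP2C1 (recomputed in ACT) was not in that set. A running median over CAP beta gave 12 lower, and a running median and spread over EtOH beta gave 9 lower, with 3 shared. Beyond the shared genes, this last setting called COQ6, INAFM1, NLN, PITRM1, SAP130 and YME1L1. NME6 was not called with a running median over EtOH beta or with the difference of z. For the interaction (19 higher, 98 lower) the counts were 3 and 13 without the spread, 6 and 53 at 0.01, and 60 lower without recomputed z. For ACT minus EtOH (206 and 30) they were 95 and 12, then 109 and 14, and 131 higher without recomputed z. At a z difference of 4 there were 0 and 1 genes. A running median over CAP z left 8 at 3, and the higher share of genes beyond 3 in either direction went from 36.2% to 24.2%. The other 32 counts stayed within 1.5 times. No called gene changed direction in any of these settings. The causes of these shifts were not tested, and which of the genes near the threshold pass is set by these choices. No paired analysis was possible because the table holds 1 value per condition with the replicates pooled, and for the same reason no replicate could be left out.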
